A study of Mus musculus with 11 samples.

Results

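The effect of tamoxifen on adult C57Bl/6 mouse stomach, averaged over the presence and absence of rapamycin, was measured on the 9 whole-stomach arrays of the 11 in the study. The 4 groups were vehicle (sunflower oil, 2 arrays), tamoxifen (5 mg per 20 g mouse for 3 days, 2 arrays), rapamycin (0.6 mg per 20 g mouse for 10 days, 3 arrays) and both drugs at these doses (2 arrays), all given as daily intraperitoneal injections. The averaged tamoxifen change of a gene was the mean of its difference between tamoxifen and vehicle and its difference between the combination and rapamycin alone. It thus set 4 arrays with tamoxifen against 5 without, and each of the 2 strata (the first without rapamycin, the second with it) counted equally. Arrays of both drugs are called combined arrays 1 and 2. The labels call the samples biological replicates, but how many mice stand behind an array is not recorded there, so the p-values measure only the spread between these samples. Whole stomach was the starting tissue in every group, no genotype other than the strain was named, and the 2 arrays not in the contrast came from purified parietal cells and from stomach cells depleted of them.

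The gastric gland holds acid-secreting parietal cells, enzyme-secreting chief cells, mucous neck and pit cells and a small pool of dividing cells. High-dose tamoxifen is known to injure parietal cells within days, after which division increases in the gland and chief cells can lose their secretory program. Rapamycin inhibits mTORC1, the kinase complex that promotes ribosome production and translation. Against this background the averaged contrast asks which tamoxifen differences are found both with and without rapamycin, and whether small ones emerge when the 4 groups are read together.

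Values are log2 expression, with one probe set per gene, and ± gives limma's standard error of the difference. Calls were made at an adjusted p (Benjamini-Hochberg) under 0.05 over all 22180 genes. Array medians lay between 5.63 and 5.75. A marker each of parietal cells (Atp4a, 12.2 to 13.3), chief cells (Cblif, 11.2 to 12.9) and pit cells (Tff1, 13.4 to 13.6) was high on every whole-stomach array. So were Atp4b, Pgc, Muc5ac, Gkn1 and Gkn2, at 12.08 or more on each. Some parietal and chief cell markers were not. The parietal gene Slc26a7 read 5.63 and 5.88 with tamoxifen beside 8.68 and 8.34 with vehicle. The chief cell gene Pga5 read 5.87 and 6.81 beside 9.56 and 10.41, and Bhlha15 lay between 6.15 and 7.64 on all arrays. Genes of the squamous forestomach varied within groups: averaged over 13 of them, the level was 4.80 and 4.37 with vehicle, 9.22 and 4.41 with tamoxifen, 9.17, 7.88 and 5.04 with rapamycin, and 8.48 and 8.76 with both drugs. Vehicle 2 and tamoxifen 2 also departed from their group means in a like direction across genes (r = 0.561 between their deviations). Leaving out tamoxifen 1 and rapamycin 3 together, named the joint omission below, makes this squamous level alike within each stratum. It also leaves tamoxifen 2 as the only array of its group and lowers the precision. Whether a call lost there reflects the squamous level or the lower precision was not tested. The genes named below that were not called under the joint omission are given as such beside their results.

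Averaging over rapamycin called 1298 genes, 5.85% of those tested, of which 719 (3.24%) were higher and 579 (2.61%) lower with tamoxifen. Tamoxifen against vehicle alone called 381 (1.72%), 207 higher (0.933%) and 174 lower (0.784%), and the combination against rapamycin 543 (2.45%), 251 higher (1.13%) and 292 lower (1.32%). Of these, 371 and 516 were also called in the average. The median standard error fell from 0.186 in the first stratum and 0.169 in the second to 0.126 in the average. The smallest called difference was 0.67, 0.52 and 0.35 in the same order. No gene was called for a difference between the strata (0% of genes in limma's interaction contrast). There, 627 of the 22180 genes had an unadjusted p under 0.05, a share below the 0.05 that chance alone would give. The averaged count fell to 613 without combined array 1, 658 without combined array 2 and 785 without rapamycin 2. Under the joint omission, chosen after seeing the data, it was 786, and with the squamous level as a covariate it called 946.

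A class of 664 genes (2.99%) was called in the average and in neither stratum, 392 higher (1.77%) and 272 lower (1.23%). The class rests on the spread shared by all 4 groups in this fit. With array weights only 71 genes were called in the average only, 41 of them among the 664. Fitted on its own arrays, the combination against rapamycin called 1102 genes and tamoxifen against vehicle 0. Their averaged change had a median size of 0.55 log2 units, with quartiles of 0.47 and 0.69. In 624 (2.81%), 373 higher (1.68%) and 251 lower (1.13%), it was under 1 log2 unit. Every one of the 664 had the same sign in both strata, where 29.9% of all genes were higher and 35.9% lower in both. In 644 all tamoxifen arrays lay beyond all arrays without tamoxifen in both strata, as in 13.6% of all genes (7.2% higher, 6.42% lower). These counts describe the class and test nothing, since low p-values chose its members. The median change of the higher genes was 0.60 without rapamycin and 0.52 with it, and that of the lower genes was -0.57 and -0.58. Of the 664, 313 had an adjusted p under 0.1 in at least 1 stratum. Just inside the threshold of the average lay Gpt (-0.40, adjusted p = 0.0497), Epb41l1 (-0.42, adjusted p = 0.0497) and Rrm2b (-0.49, adjusted p = 0.05), and just outside it lay Dcun1d5 (0.55, adjusted p = 0.0501), Penk (-0.55, adjusted p = 0.0501) and Mtrr (0.41, adjusted p = 0.0501). None of the 3 inside was called under the joint omission (adjusted p between 0.127 and 0.234).

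**Figure D1:**
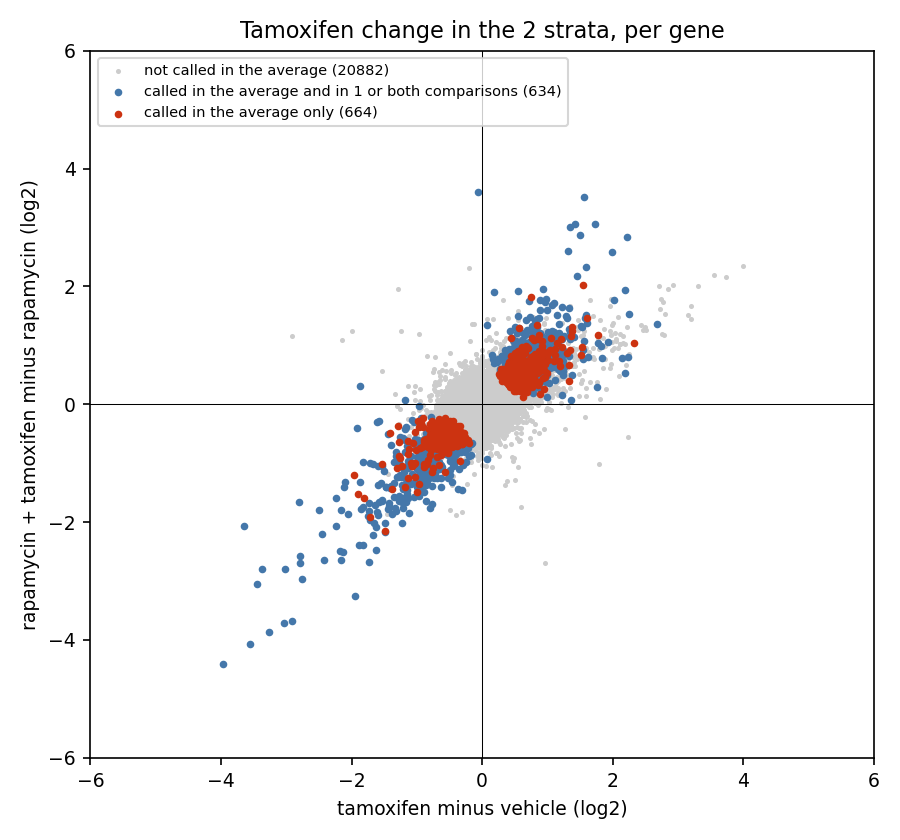
Each point is 1 of 22180 genes, with its log2 difference between tamoxifen and vehicle on the x axis and between the combination and rapamycin on the y axis. The 664 genes called in the average only (red) lie in the lower left and upper right quadrants, with a median averaged size of 0.55; the 634 genes called also in a single comparison are blue and the 20882 uncalled genes grey.

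Membership of this class depended on single arrays. When each of the 9 arrays was left out in turn, all 664 genes kept their direction each time. That tests nothing, since low p-values on these same arrays had chosen the genes. The number still called in the average ranged from 449 without vehicle 2 to 72 without combined array 1 and 114 without combined array 2. It was 282 without vehicle 1, 391 without tamoxifen 1, 346 without tamoxifen 2, and 279, 201 and 268 without rapamycin 1, 2 and 3. Across all 9 omissions 38 of the 664 genes stayed called, 26 higher and 12 lower, and 29 of the 38 were also called under the joint omission. Of all 664, 173 were called under the joint omission. All 664 kept their direction there too, which again tests nothing. Of the 140 called genes chosen by rule to be named here, 73 were not called there, and 44 were not called with the squamous level as a covariate; all of the 44 but Kdr are among the 73. Because of this, the number of the 9 omissions in which a gene was still called in the average is given beside the genes named here.

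**Figure D2:**
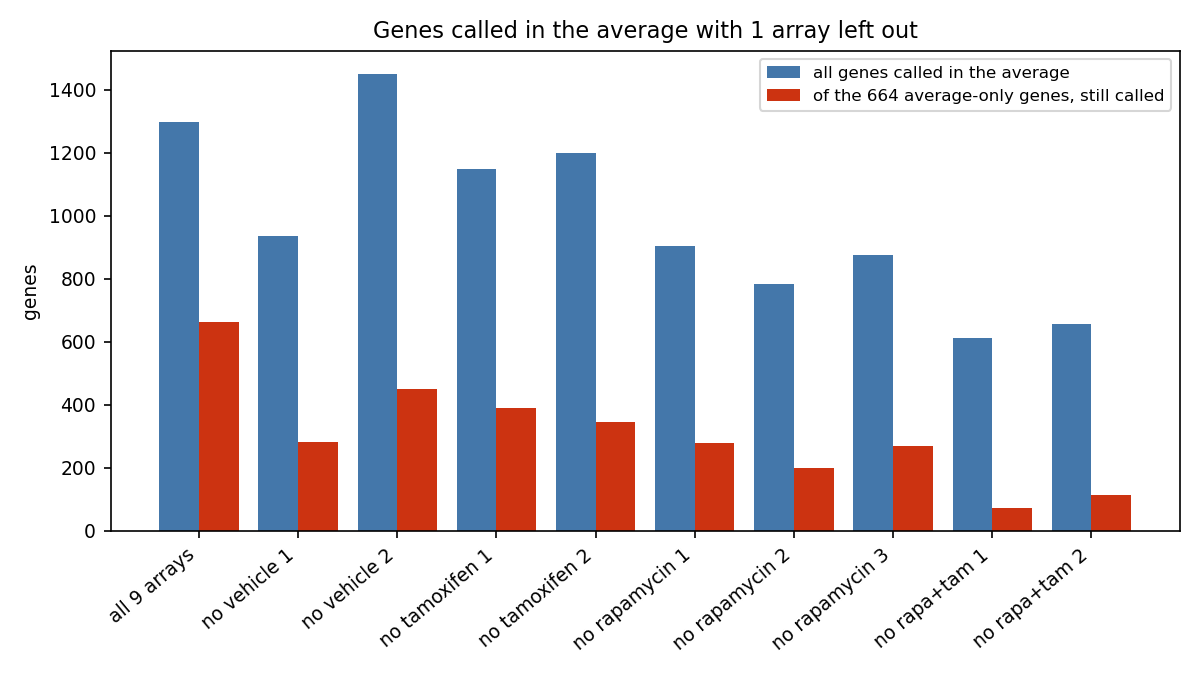
Bars count genes called in the average with all 9 arrays and with each array left out (x axis): all called genes in blue, and in red those of the 664 average-only genes that were still called. Omitting combined array 1 left 613 called genes and 72 of the 664, the lowest of the 9 omissions.

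Among the modest rises of smallest p were several genes that act in chromosome segregation. Gtse1, which encodes a microtubule-binding protein of dividing cells, read 6.36 and 6.45 with vehicle, 7.11 and 7.03 with tamoxifen, 6.04, 6.19 and 5.96 with rapamycin, and 6.64 and 6.64 with both drugs. Tamoxifen raised it by 0.62 ± 0.09 (adjusted p = 0.00496), with 0.66 and 0.57 in the strata, and the groups did not overlap in either stratum. The arrays with rapamycin lay lower throughout, the combined arrays below the tamoxifen arrays and the rapamycin arrays below vehicle. Sgo1, whose protein shields cohesion at the centromere, read 5.64 and 6.05 with vehicle, 6.64 and 7.06 with tamoxifen, 5.59, 5.30 and 5.38 with rapamycin, and 6.43 and 6.17 with both drugs, a rise of 0.94 ± 0.14 (adjusted p = 0.00517). The kinetochore gene Cenpt (0.54 ± 0.09, adjusted p = 0.00674) and Cdca2 (0.61 ± 0.10, adjusted p = 0.00676), whose protein brings a phosphatase to chromosomes, rose by similar amounts. In whole tissue, a change in the number of cells of a type and a change in RNA per cell cannot be told apart, for these genes and those that follow. All 4 stayed called in 9 of 9 omissions, and Cenpt lost its call under the joint omission (adjusted p = 0.0567).

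Cyclin D1 (Ccnd1), the cyclin that starts passage through G1, read 8.52 and 8.66 with vehicle, 9.13 and 9.42 with tamoxifen, 8.69, 8.78 and 8.83 with rapamycin, and 9.47 and 9.30 with both drugs. Its rise of 0.65 ± 0.10 (adjusted p = 0.00655) was 0.69 without rapamycin and 0.62 with it, and both strata were free of overlap. Further genes called in all 9 omissions, named after their values were seen, were the S-phase transcription factor gene E2f3 (0.83 ± 0.14), the checkpoint ATPase gene Trip13 (1.03 ± 0.16), the spindle gene Dlgap5 (0.88 ± 0.14) and the cytokinesis kinase gene Cit (0.62 ± 0.10). The replication helicase gene Cdc45 (0.73 ± 0.12, adjusted p = 0.00856) was called in 9 of 9 as well, but not under the joint omission (adjusted p = 0.0552), where Dlgap5 was not called either (adjusted p = 0.0515).

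Most members of the division lists were called. Of 31 measured DNA replication genes 27 were called higher and 0 lower in the average, against 18 in the first stratum and 15 in the second. Of the 27, 7 were called in the average only, among them the polymerase gene Pole (0.90 ± 0.15, adjusted p = 0.00937), the origin-firing gene Mcm10 (0.75 ± 0.13, adjusted p = 0.012) and Gins2 (0.59 ± 0.11, adjusted p = 0.0132). The list's median was 0.76, where that of all genes was -0.02. All 27 mitosis genes were called higher (median 1.0). For 3 of them, Kif23 (1.09 ± 0.19, adjusted p = 0.00984), Cenpf (0.77 ± 0.15, adjusted p = 0.0182) and Mki67 (0.94 ± 0.19, adjusted p = 0.0213), the call was in the average only. Mki67, the proliferation marker, read 8.98 and 9.70 with vehicle, 9.81 and 10.46 with tamoxifen, 8.37, 8.27 and 8.06 with rapamycin, and 9.48 and 9.16 with both drugs. Vehicle 2 lay just under tamoxifen 1, and the arrays with rapamycin lay lower than their counterparts without it. It was kept in 4 of 9 omissions. Among 16 DNA repair genes 9 were higher and 1 lower (median 0.57), with the checkpoint kinase gene Chek1 (0.80 ± 0.13, adjusted p = 0.00845), Brca1 (0.66 ± 0.13, adjusted p = 0.0191), Msh6 (0.58 ± 0.12, adjusted p = 0.0262) and Atr (0.56 ± 0.13, adjusted p = 0.0379) in the average only. Without combined array 1 the number of higher calls was 21 for replication, 24 for mitosis and 3 for repair (5 without rapamycin 1 or 2), and the medians stayed between 0.74 and 0.85, 0.97 and 1.05, and 0.50 and 0.65 over all 9 omissions. The joint omission left 23, 27 and 5 higher calls in the 3 lists, without Pole (adjusted p = 0.0595), Brca1 (0.0908) and Msh6 (0.139).

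Promoter windows of a few of these genes are printed because the lists moved together. The windows are the 250 bases before the first listed start in RefSeq (GRCm38.p6). Promoters of 1 chromosome were left out of the search, and 16990 of the 22180 genes had a window. Each was searched on both strands. The E2F motif TTTNGCGC, named for the factors that drive S-phase genes, occurred in 4 of 26 DNA replication windows (15.4%) and in 1.48% of all windows. Among average-only genes it occurred in 12 of 311 windows of higher genes (3.86%) and in 1 of 209 of lower genes (0.478%). The replication gene Rfc3 (chr5:151651209-151651458, minus strand) is shown as the list's average-only holder of the motif, and Snrnp70 (chr7:45395743-45395992, minus strand), which encodes a splicing protein, as the holder of lowest p outside the list. Capitals mark the match, 10 bases before the start in Rfc3 and 65 in Snrnp70.
Rfc3: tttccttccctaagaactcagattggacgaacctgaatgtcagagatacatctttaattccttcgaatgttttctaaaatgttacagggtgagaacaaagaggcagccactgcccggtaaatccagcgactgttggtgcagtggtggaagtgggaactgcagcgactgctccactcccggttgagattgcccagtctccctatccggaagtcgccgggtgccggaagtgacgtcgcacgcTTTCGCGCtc
Snrnp70: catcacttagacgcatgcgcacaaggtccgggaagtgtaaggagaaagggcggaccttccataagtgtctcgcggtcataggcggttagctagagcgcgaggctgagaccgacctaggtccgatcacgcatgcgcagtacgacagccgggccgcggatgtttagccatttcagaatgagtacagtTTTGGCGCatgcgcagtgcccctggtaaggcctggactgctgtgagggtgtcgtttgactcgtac
A match is a description of these letters and not of binding. Rfc3 rose by 0.56 ± 0.12 and Snrnp70 by 0.53 ± 0.10. Other average-only higher genes with the motif were Topbp1 (0.50 ± 0.11), which acts in the replication checkpoint, Casp8ap2 (0.45 ± 0.11), the nucleolar gene Ncl (0.79 ± 0.18) and the splicing gene Prpf38a (0.44 ± 0.10). The rest of the 12 were H2bc12 (0.92 ± 0.20), Myof (0.66 ± 0.15), Thop1 (0.62 ± 0.15), Erap1 (0.39 ± 0.09), Dhx9 (0.53 ± 0.13) and Tap1 (0.93 ± 0.23). Of the 12, only Ncl and H2bc12 were called under the joint omission (adjusted p = 0.0418 for each).

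The CCAAT motif, bound by NF-Y at many G2 and M phase promoters, occurred in 18 of 23 mitosis windows (78.3%) and in 35.6% of all windows. Windows of average-only genes held it at 36.7% for higher and 37.8% for lower genes, close to the share over all windows. Kif23, a motor gene of the cytokinetic midzone (chr9:61946800-61947049, minus strand), and Cenpf, a kinetochore gene (chr1:189688087-189688336, minus strand), are shown as mitosis genes called in the average only. Capitals mark CCAAT or its reverse complement, 7 bases before the start in Kif23 and 132 and 71 in Cenpf.
Kif23: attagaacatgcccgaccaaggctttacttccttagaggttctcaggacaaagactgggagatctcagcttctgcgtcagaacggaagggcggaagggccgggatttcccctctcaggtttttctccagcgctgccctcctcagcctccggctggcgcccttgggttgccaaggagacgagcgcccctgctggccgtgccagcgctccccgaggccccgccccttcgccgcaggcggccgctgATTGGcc
Cenpf: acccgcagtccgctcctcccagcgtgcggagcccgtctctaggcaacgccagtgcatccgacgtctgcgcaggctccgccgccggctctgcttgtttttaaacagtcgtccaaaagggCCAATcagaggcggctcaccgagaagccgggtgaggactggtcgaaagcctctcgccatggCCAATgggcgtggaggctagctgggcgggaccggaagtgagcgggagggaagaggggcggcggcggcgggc
Kif23 read 7.04 and 7.46 with vehicle, 7.96 and 8.66 with tamoxifen, 6.63, 6.20 and 6.49 with rapamycin, and 7.81 and 7.32 with both drugs. The values of Cenpf were 5.93 and 6.57 with vehicle, 6.69 and 7.07 with tamoxifen, 5.51, 5.36 and 5.47 with rapamycin, and 6.44 and 6.26 with both drugs. In both genes tamoxifen 2 was the highest array, vehicle 2 stood above vehicle 1, and the change within the rapamycin stratum was 1.12 ± 0.25 for Kif23 and 0.91 ± 0.20 for Cenpf. Kif23 kept its call in 8 of 9 omissions (adjusted p = 0.0561 without combined array 1) and Cenpf in 6 of 9.

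Ribosome biogenesis supplied the most average-only calls of the 55 lists. Of 33 measured members 23 were called higher and 0 lower, 15 of them in the average only (45.5% of the list, beside 2.99% of all genes). Only 8 members were called in the first stratum and 4 in the second. All 33 were above 0, as were 45.7% of all genes, with a median of 0.56 (0.65 without rapamycin, 0.48 with it). Nhp2, which encodes a subunit of the ribonucleoprotein that places pseudouridines in ribosomal RNA, read 7.98 and 7.60 with vehicle, 8.60 and 8.45 with tamoxifen, 7.76, 7.74 and 7.98 with rapamycin, and 8.49 and 8.49 with both drugs. Its rise was 0.70 ± 0.11 (adjusted p = 0.00742) and 9 of 9 omissions kept it. Both combined arrays stood near the lower tamoxifen array, and the highest array without tamoxifen (7.98) stood under the lowest with it (8.45).

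Further along the same pathway, the pre-ribosome processing genes Nop16 (0.54 ± 0.10, adjusted p = 0.0137), Utp20 (0.56 ± 0.10, adjusted p = 0.0141) and Heatr1 (0.67 ± 0.12, adjusted p = 0.0144) rose and were called in 8 of 9 omissions each, losing the call without combined array 1 (adjusted p between 0.0809 and 0.0824). Heatr1 was called under the joint omission, while Nop16 (adjusted p = 0.0762) and Utp20 (0.062) were not. Nifk, a nucleolar gene outside the list, read 7.67 and 7.86 with vehicle, 8.49 and 8.32 with tamoxifen, 7.87, 7.70 and 7.66 with rapamycin, and 8.33 and 8.39 with both drugs. It rose by 0.63 ± 0.10 (adjusted p = 0.0065) with 9 of 9 omissions kept, though not under the joint omission (adjusted p = 0.054). Named after their values were seen, Wdr75 (0.61 ± 0.10), of the small-subunit processome, and Exosc1 (0.56 ± 0.09), of the RNA exosome, were kept in 9 of 9, Exosc1 not under the joint omission (adjusted p = 0.0506). Without combined array 1 only 8 of the list's 33 genes were called, the median then being 0.53. Omitting vehicle 1, tamoxifen 2, combined array 2 or any rapamycin array left 12 to 14 calls, and the joint omission 14 (median 0.58). The E-box CACGTG, the motif of Myc, occurred in 2 of 28 windows of the list (7.14%) and in 6.86% of all windows, and no window is shown for it.

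**Figure D3:**
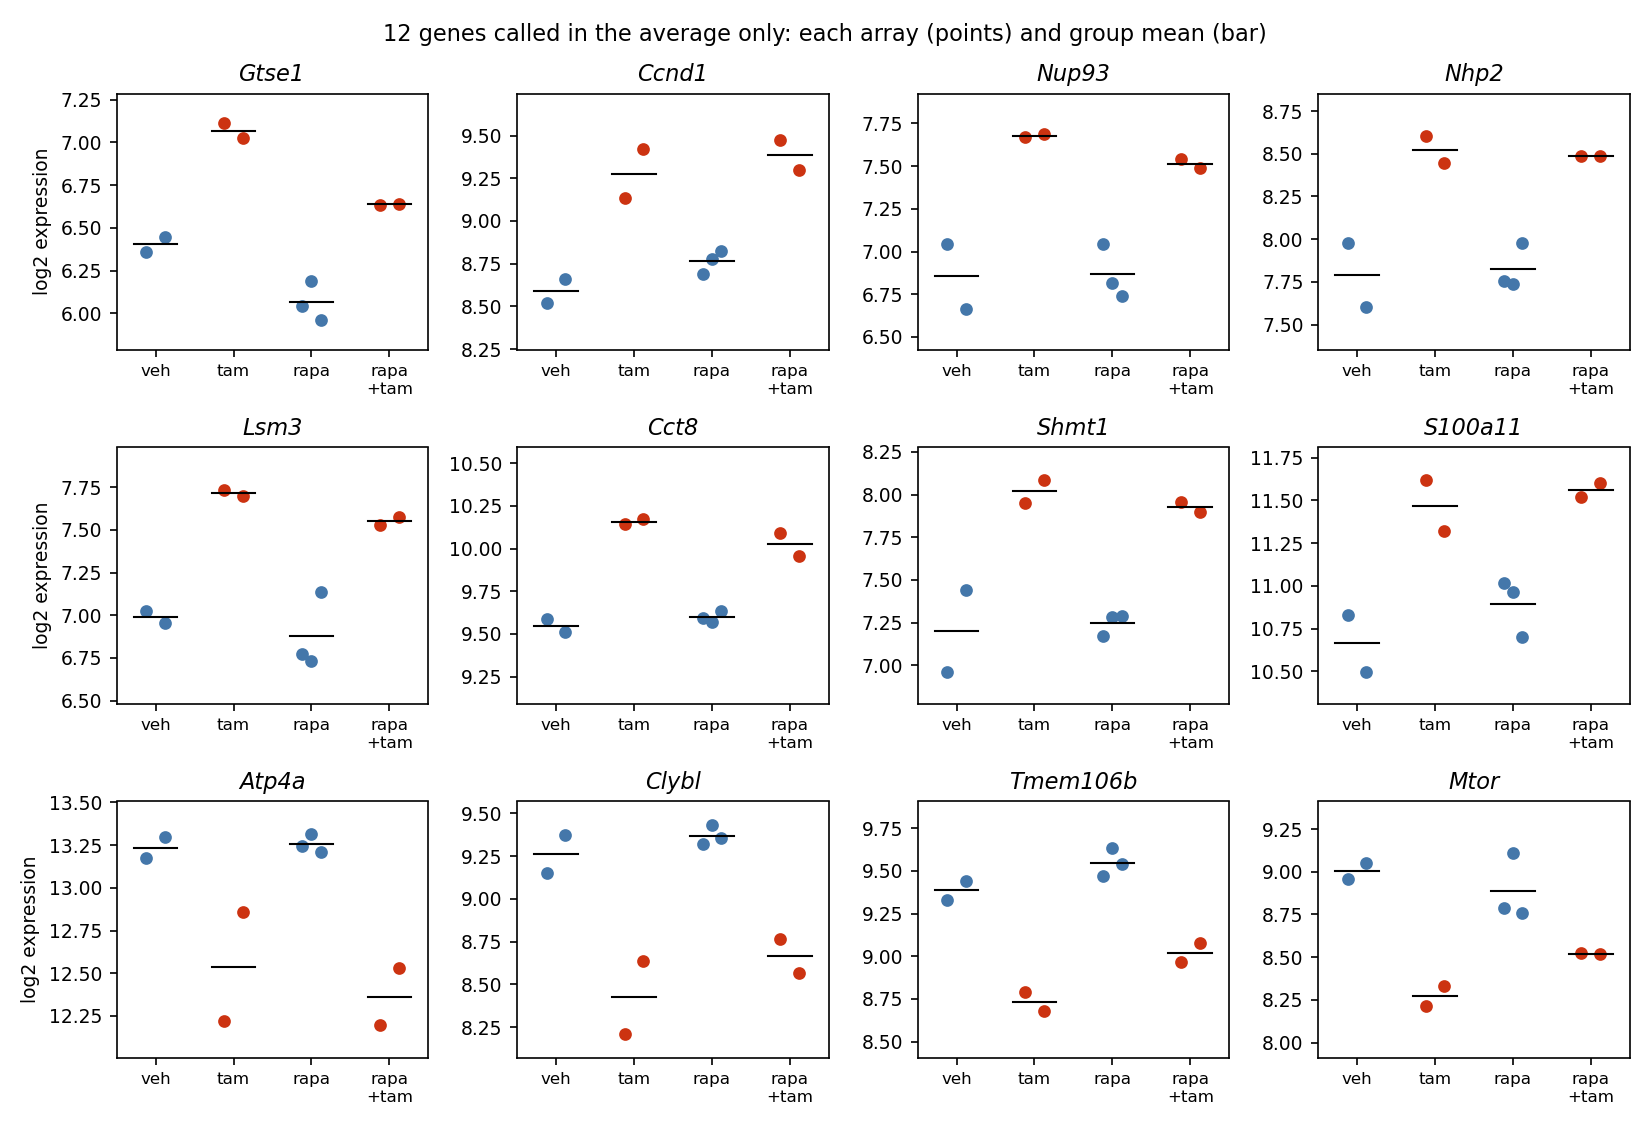
Log2 expression of 12 genes called in the average only, by group (veh, vehicle; tam, tamoxifen; rapa, rapamycin), with 1 point per array and a bar at the group mean. In each panel the tamoxifen arrays (red) lie beyond the arrays without it (blue) within both strata, with the widest spread within a group for Atp4a, whose tamoxifen arrays read 12.22 and 12.86.

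Cytosolic ribosomal protein genes moved less, and only the average called any. Of 22 measured genes 7 were called higher in the average, 0 in either stratum (8 and 12 at an unadjusted p under 0.05 in limma) and 0 lower, and all 22 lay above 0 (median 0.39). At that unadjusted p the strata held 2423 and 3085 of all 22180 genes. Rpl32, a large-subunit protein gene, read 10.39 and 10.80 with vehicle, 10.99 and 11.43 with tamoxifen, 10.41, 10.50 and 10.42 with rapamycin, and 11.12 and 11.28 with both drugs. Its rise was 0.69 ± 0.13 (adjusted p = 0.0159), called in 7 of 9 omissions and lost without either combined array. Vehicle 2 stood above vehicle 1 and not far under tamoxifen 1, while the strata did not overlap. Rpl5 (0.44 ± 0.08, adjusted p = 0.0179), Rps19 (0.71 ± 0.15, adjusted p = 0.0241) and Rpl19 (0.40 ± 0.09, adjusted p = 0.034) were called in 5, 3 and 1 of 9 omissions. Rpl32 was called under the joint omission and the other 3 were not (adjusted p between 0.0849 and 0.135), leaving 1 called gene. Without either combined array no gene of the list was called, without vehicle 1, tamoxifen 1, tamoxifen 2 or any rapamycin array 1 to 3 were, and over the omissions the median ranged from 0.29 (without vehicle 1) to 0.43. Ribosomal protein genes have many near-identical processed copies in the genome, and whether these probe sets separate them is uncertain.

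Translation factors and tRNA synthetases showed smaller and sparser changes. Eif4e, the cap-binding protein gene whose product is held back by mTORC1-controlled repressors, read 8.93 and 8.87 with vehicle, 9.34 and 9.44 with tamoxifen, 8.94, 8.85 and 8.90 with rapamycin, and 9.28 and 9.25 with both drugs. All 4 arrays with tamoxifen were above all 5 without it, for a rise of 0.43 ± 0.08 (adjusted p = 0.02), kept in 3 of 9 omissions. Eif6 (0.40 ± 0.10, adjusted p = 0.0484), a 60S subunit factor gene, was kept in 1. Of 21 factors 3 were called higher (median 0.20) and of 18 synthetases 2 (median 0.21), with Rars (0.43 ± 0.10, adjusted p = 0.0468) in the average only and in 1 of 9 omissions. No factor was called without tamoxifen 2, rapamycin 1, rapamycin 2 or either combined array, and 1 was without rapamycin 3. Their median was 0.13 without vehicle 1 and 0.32 without vehicle 2, and that of the synthetases 0.11 without vehicle 1, with 1 synthetase called in 7 of the 9 omissions. None of Eif4e (adjusted p = 0.0846), Eif6 (0.0991) and Rars (0.16) was called under the joint omission.

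Nuclear transport genes formed the second main group of average-only rises. Of 30 measured genes 14 were higher and 0 lower, 10 in the average only, where single comparisons called 3 and 2. All 30 were above 0 (median 0.44). Nup93, a scaffold nucleoporin of the inner ring, read 7.05 and 6.66 with vehicle, 7.67 and 7.69 with tamoxifen, 7.05, 6.82 and 6.74 with rapamycin, and 7.54 and 7.49 with both drugs. It rose by 0.73 ± 0.11 (adjusted p = 0.00636), with 0.82 and 0.65 in the strata and no overlap. Nup133, of the outer ring, rose by 0.74 ± 0.12 (adjusted p = 0.00804), and both nucleoporin genes were called in 9 of 9 omissions. The importin gene Kpna2 (0.47 ± 0.09, adjusted p = 0.0139) was lost without either combined array, and the importin recycling factor gene Cse1l (0.44 ± 0.09, adjusted p = 0.0222) was kept in 3 of 9. Without either combined array the list had 6 called genes, and 7 or 8 without vehicle 1, tamoxifen 2 or any rapamycin array, while its median lay between 0.35 and 0.47 over the 9 omissions. With 8 calls under the joint omission, Kpna2 (adjusted p = 0.0875) and Cse1l (0.121) were not among them.

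RNA processing genes shared this pattern. Of 32 splicing genes 12 were higher, 0 lower and 8 in the average only, against 3 and 2 called in the strata, and all 32 were above 0 (median 0.38). Lsm3, a subunit of the ring that binds U6 RNA, read 7.03 and 6.95 with vehicle, 7.73 and 7.70 with tamoxifen, 6.78, 6.73 and 7.13 with rapamycin, and 7.53 and 7.58 with both drugs. The change was 0.70 ± 0.11 (adjusted p = 0.00637), similar in the strata (0.72 and 0.67), and 9 of 9 omissions kept it. Srrt, which links the RNA cap-binding complex to processing machinery, read 8.60 and 8.63 with vehicle, 9.19 and 9.16 with tamoxifen, 8.44, 8.40 and 8.57 with rapamycin, and 9.06 and 8.98 with both drugs. Its 4 tamoxifen arrays spanned only 8.98 to 9.19 and its 5 others 8.40 to 8.63, for a rise of 0.56 ± 0.09 (adjusted p = 0.00663) kept in 9 of 9. The splice-site recognition genes U2af2 (0.47 ± 0.09, adjusted p = 0.0135), Srsf1 (0.43 ± 0.09, adjusted p = 0.021) and Sf3b3 (0.49 ± 0.10, adjusted p = 0.0265) were called in 7, 2 and 1 of 9 omissions, and none of the 3 under the joint omission (adjusted p between 0.0749 and 0.128). The list had 4 called genes without combined array 2, 5 without combined array 1, 6 or 7 without a rapamycin array and 5 under the joint omission.

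Protein folding was represented by the chaperonin ring that folds actin and tubulin. Of 23 folding genes 6 were higher, 0 lower and 4 in the average only, all 4 encoding chaperonin subunits. Cct8 read 9.59 and 9.51 with vehicle, 10.14 and 10.17 with tamoxifen, 9.59, 9.57 and 9.63 with rapamycin, and 10.09 and 9.96 with both drugs. The 5 arrays without tamoxifen spanned 9.51 to 9.63, and the rise was 0.52 ± 0.09 (adjusted p = 0.00855). Cct6a (0.55 ± 0.10, adjusted p = 0.0123), Cct5 (0.51 ± 0.09, adjusted p = 0.0128) and Cct7 (0.56 ± 0.13, adjusted p = 0.0431) rose alongside. Cct8 and Cct6a lost the call without combined array 1 (adjusted p = 0.0584 and 0.0748), Cct5 without either combined array, and Cct7 was called in 2 of 9 omissions. All 4 were uncalled under the joint omission, with adjusted p's of 0.0515, 0.0567, 0.0515 and 0.072. The list had 2 called genes there and 2 without combined array 1. The median of the list was 0.44, between 0.32 (without vehicle 1) and 0.53 over the omissions.

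Proteasome genes had few calls, at a share (6.45%) near that of all genes (5.85%). All 31 measured subunits were above 0 (median 0.29), but 2, Psmd7 (0.53 ± 0.12, adjusted p = 0.0302) and Psmd3 (0.37 ± 0.09, adjusted p = 0.0405), were called, both in the average only and both regulatory-particle subunits. They were kept in 3 and 1 of 9 omissions, and not under the joint omission (adjusted p = 0.0611 and 0.107). No gene of the list was called there or without vehicle 1, tamoxifen 2, rapamycin 2, rapamycin 3 or either combined array, while 4 were without tamoxifen 1 and 6 without vehicle 2. Vehicle 2 lay above the other arrays without tamoxifen in this list's mean (8.70 beside 8.40 to 8.46).

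One-carbon and nucleotide synthesis genes rose in part. Shmt1, the cytosolic enzyme that passes a carbon from serine to folate, read 6.96 and 7.44 with vehicle, 7.95 and 8.09 with tamoxifen, 7.17, 7.29 and 7.29 with rapamycin, and 7.96 and 7.90 with both drugs. Its rise was 0.75 ± 0.12 (adjusted p = 0.00633) in 9 of 9 omissions, and the tamoxifen and combined arrays fell in a span of 7.90 to 8.09. The purine enzyme gene Atic (0.62 ± 0.11, adjusted p = 0.0118), the CTP synthase gene Ctps (0.59 ± 0.12, adjusted p = 0.0207) and the mitochondrial folate enzyme gene Mthfd1l (0.80 ± 0.17, adjusted p = 0.0291) were called in 8, 4 and 3 of 9. Of 22 list members 6 were higher and 1 lower (median 0.32), and without combined array 1 there were 2 higher calls. Atic (adjusted p = 0.0707) and Mthfd1l (0.0695) were not called under the joint omission.

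Genes for the mitochondrial ribosome and protein import rose in part. Of 28 measured genes 6 were called higher, all in the average only, and 27 lay above 0 (median 0.30). Mrps22 (0.44 ± 0.08, adjusted p = 0.017), Mrpl19 (0.56 ± 0.11, adjusted p = 0.0192) and Mrpl3 (0.55 ± 0.11, adjusted p = 0.0239) encode ribosomal subunits and Timm10 (0.47 ± 0.09, adjusted p = 0.0194) an import chaperone. Mrps22 read 7.11 and 7.16 with vehicle, 7.66 and 7.71 with tamoxifen, 7.08, 7.06 and 7.16 with rapamycin, and 7.40 and 7.48 with both drugs, with the combined arrays under the tamoxifen arrays. These 4 were called in 3 to 5 of 9 omissions. No list member was called without rapamycin 1 or either combined array, 1 to 3 were without vehicle 1, tamoxifen 2, rapamycin 2 or rapamycin 3, and only Mrpl3 was under the joint omission (adjusted p between 0.0503 and 0.0754 for the other 3). Respiratory chain and TCA cycle genes were called at shares below or near that of all genes (5.85%). Of 34 respiratory chain genes 32 lay below 0 (median -0.17), as did 54.3% of all genes, with 1 called (2.94%): the succinate dehydrogenase gene Sdha (-0.46 ± 0.11, adjusted p = 0.0484), kept in 1 of 9. Of 29 genes of the TCA cycle and fatty acid oxidation 2 were lower (6.9%) and 0 higher (median -0.17), Idh2 (-0.62 ± 0.13, adjusted p = 0.0288) in the average only and in 2 of 9 omissions. Without tamoxifen 1 the medians of the respiratory and TCA lists were -0.08 each, and without tamoxifen 2 the TCA list had 5 lower genes and a median of -0.31. Under the joint omission Sdha (adjusted p = 0.19) and Idh2 (0.104) were not called, and the medians were -0.07 and -0.11. Both lists stood higher in the parietal fraction than in the depleted one, with median differences of 1.01 and 1.10 between those 2 arrays.

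**Figure D4:**
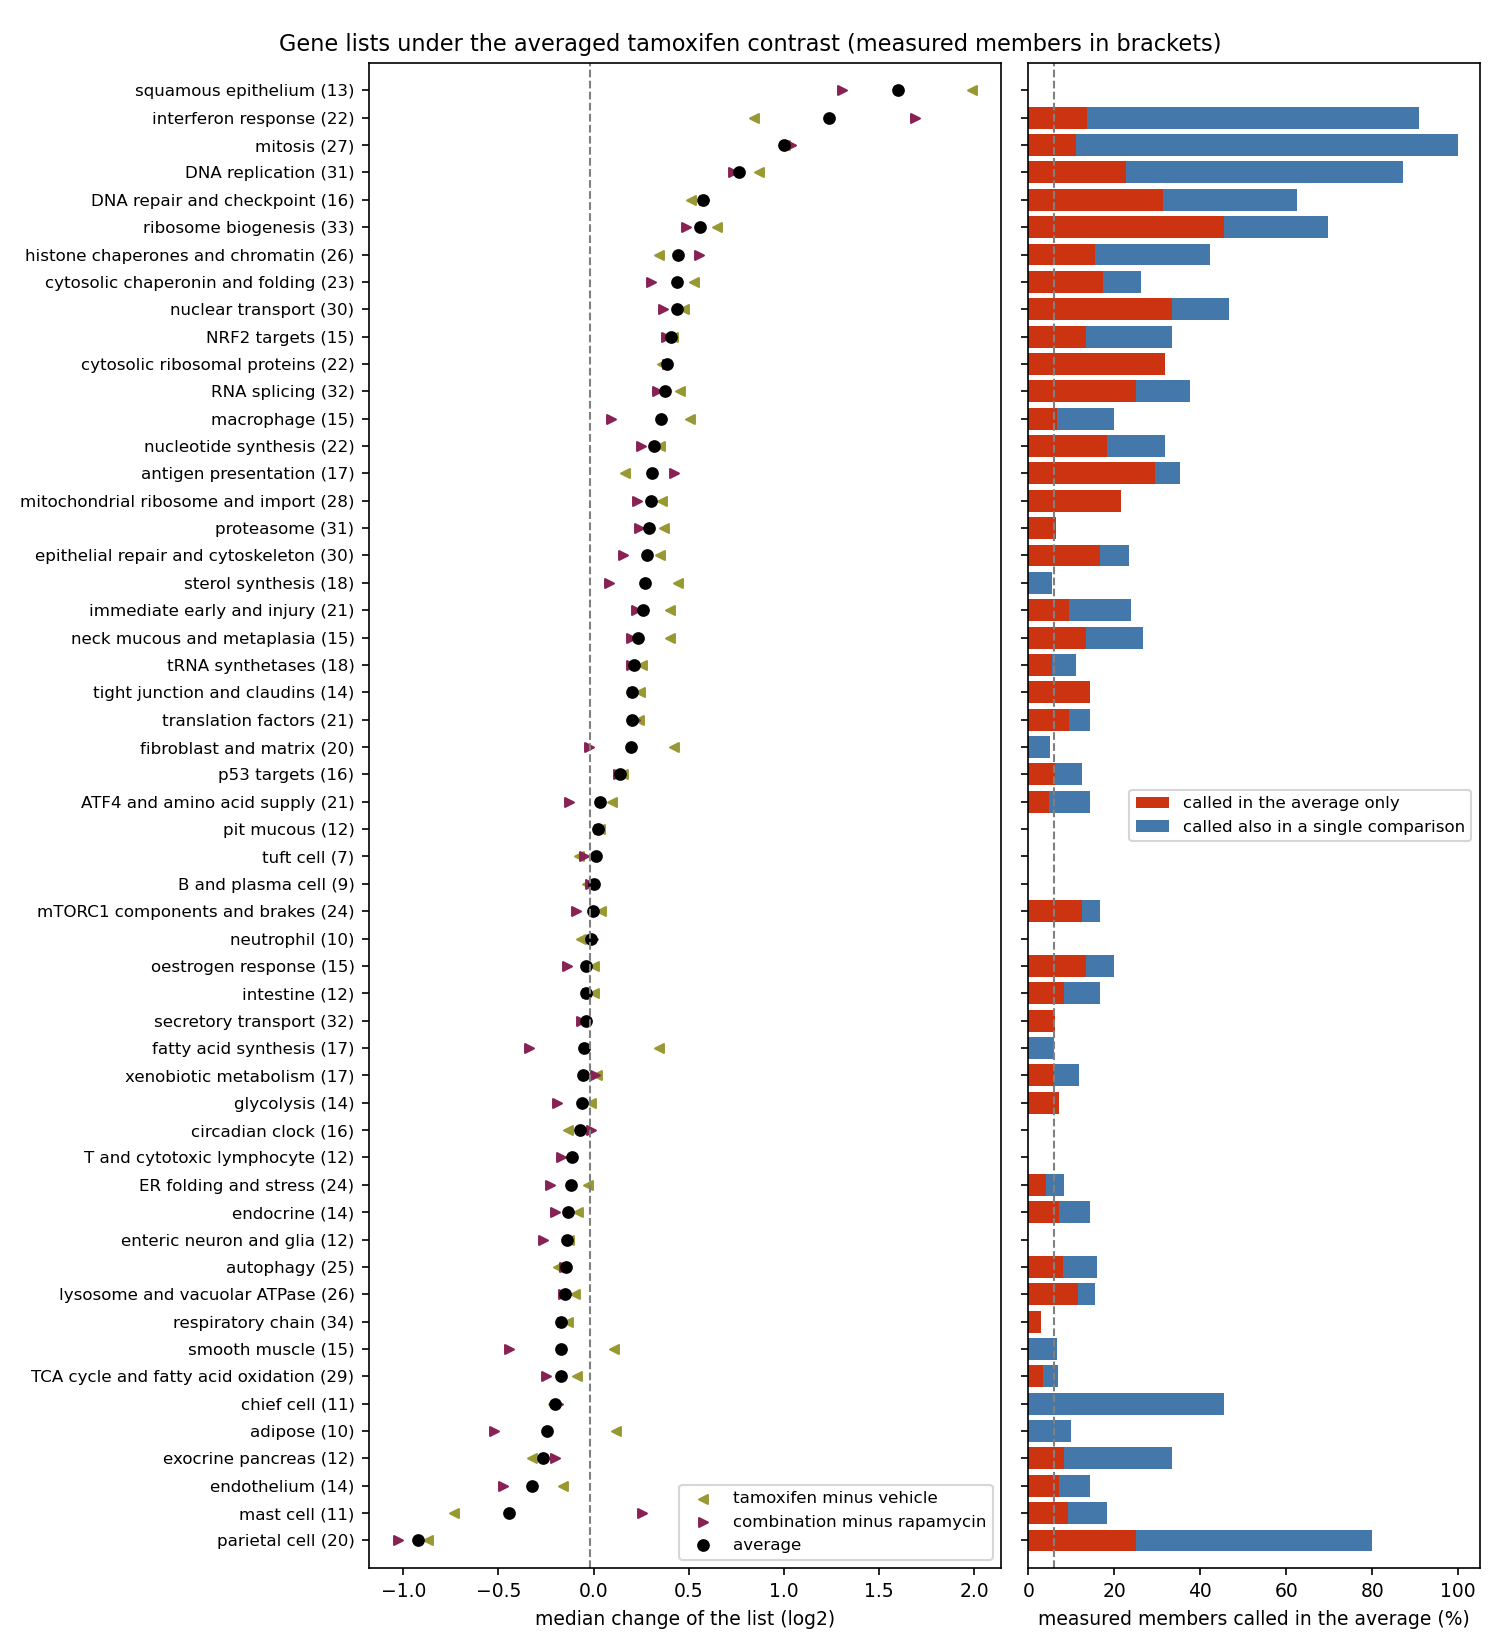
Left, median log2 change of each gene list in the average (black) and in the 2 strata (triangles); right, share of measured members called, split into genes called in the average only (red) and also in a single comparison (blue). Dashed lines are the values over all genes (-0.02 and 5.85%); ribosome biogenesis has the largest red bar (45.5%), and the squamous list has a median of 1.60 with no gene called.

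Parietal genes fell in both strata, and averaging brought in members that the strata had left uncalled. Of 20 measured genes 16 were lower and 0 higher (median -0.92), against 5 lower in the first stratum and 11 in the second, and 5 were called in the average only. Atp4a, the catalytic subunit of the gastric proton pump, read 13.17 and 13.30 with vehicle, 12.22 and 12.86 with tamoxifen, 13.25, 13.32 and 13.21 with rapamycin, and 12.20 and 12.53 with both drugs. All 4 tamoxifen arrays were below the other 5, and tamoxifen 1 and combined array 1 were the lowest. Its fall was -0.79 ± 0.14 (adjusted p = 0.0131), kept in 8 of 9 omissions (adjusted p = 0.0732 without combined array 1).

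The water channel gene Aqp4 read 7.98 and 8.63 with vehicle, 5.73 and 7.92 with tamoxifen, 8.38, 8.69 and 8.37 with rapamycin, and 6.38 and 6.28 with both drugs. Tamoxifen 2 stood at 7.92, near vehicle 1, while the other 3 tamoxifen arrays were at 6.38 or lower, and the fall of -1.82 ± 0.38 (adjusted p = 0.0257) was kept in 3 of 9 omissions. The acetylcholine receptor gene Chrm3 (-0.45 ± 0.10, adjusted p = 0.0313), which mediates nerve-driven acid secretion, and the potassium channel gene Kcnj15 (-0.69 ± 0.16, adjusted p = 0.0354) were each kept in 2 of 9. Without combined array 1 the list had 10 called genes and under the joint omission 13, with Chrm3 (adjusted p = 0.101) and Kcnj15 (0.146) uncalled, and its median over the omissions was -1.09 to -0.86.

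Among the modest falls of smallest p, 3 genes that belong to no list fell alike. Clybl, a mitochondrial lyase of C5 metabolism, read 9.15 and 9.37 with vehicle, 8.21 and 8.64 with tamoxifen, 9.32, 9.43 and 9.36 with rapamycin, and 8.76 and 8.57 with both drugs. It fell in both strata without overlap (-0.77 ± 0.12, adjusted p = 0.00594). Tmem106b, a lysosomal membrane protein gene, read 9.33 and 9.44 with vehicle, 8.79 and 8.68 with tamoxifen, 9.47, 9.63 and 9.54 with rapamycin, and 8.97 and 9.08 with both drugs, a fall of -0.59 ± 0.09 (adjusted p = 0.00616). Pm20d2, a dipeptidase gene, read 7.43 and 7.39 with vehicle, 6.62 and 6.84 with tamoxifen, 7.37, 7.42 and 7.58 with rapamycin, and 6.91 and 6.84 with both drugs and changed by -0.63 ± 0.10 (adjusted p = 0.00583). The 4 tamoxifen arrays were below the 5 others for all 3 genes, and each was called in 9 of 9 omissions and under the joint omission.

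Ghr, the growth hormone receptor gene, read 7.27 and 7.56 with vehicle, 6.43 and 6.74 with tamoxifen, 7.18, 7.32 and 7.30 with rapamycin, and 6.76 and 6.53 with both drugs. The fall was -0.72 ± 0.12 (adjusted p = 0.00703), in 9 of 9 omissions, but with an adjusted p of 0.0508 under the joint omission. The planar polarity cadherin gene Celsr1 (-0.84 ± 0.13, adjusted p = 0.00642) was called under each of these omissions. Dthd1 (-0.73 ± 0.12, adjusted p = 0.00677) read 6.78 and 7.05 with vehicle, 6.13 and 6.11 with tamoxifen, 7.75, 7.74 and 7.38 with rapamycin, and 6.92 and 7.0 with both drugs. Its combined arrays, at 6.92 and 7.0, lay at the vehicle level, while the rapamycin arrays were higher than vehicle, so the groups are apart within strata and not across them. Lower as well were Tmx4 (-0.60 ± 0.10, adjusted p = 0.00703) and Txndc16 (-0.67 ± 0.11, adjusted p = 0.00787), thioredoxin-related genes of the secretory pathway, both in 9 of 9 (Tmx4 not under the joint omission, adjusted p = 0.0559), and Gde1 (-0.56 ± 0.09, adjusted p = 0.00765), Nipsnap2 (-0.67 ± 0.11, adjusted p = 0.00858) and Rbbp9 (-0.60 ± 0.10, adjusted p = 0.00892), each in 8 of 9. Gde1 and Nipsnap2 lost the call without combined array 1 (adjusted p = 0.0525 and 0.0545) and Rbbp9 without combined array 2 (0.0549). Under the joint omission Gde1 and Nipsnap2 had adjusted p's of 0.064 and 0.0542.

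The average-only falls leaned towards genes of the parietal fraction, a readout the contrast did not use. The difference between isolated parietal cells and the other stomach cells, from 1 array each and so with no test, had a median of 0.85 log2 units over the 272 lower genes, -0.27 over the 392 higher genes and 0.03 over all genes. A difference of at least 1 was found in 47.1% of the lower genes and in 6.32% of all genes. The lean was larger in genes called lower in the average and also in a stratum (median 1.45, with 60.9% at 1 or more). Their higher counterparts had a median of -0.57. Leaving out the genes of the parietal list changed neither value by much (0.85 and 46.4%). Ghr (2.72), Tmem106b (2.01), Pm20d2 (1.69) and Clybl (1.12) were all higher in the parietal fraction. Creb3l1, an exception, was lower there (-2.20), and Celsr1 stood at 0.90. Among the rises, Ccnd1 (-1.46), Ano9 (-1.55) and S100a11 (-1.82) were lower in the parietal fraction, whereas Lama5 (2.19) and Shmt1 (1.78) were higher in it.

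**Figure D5:**
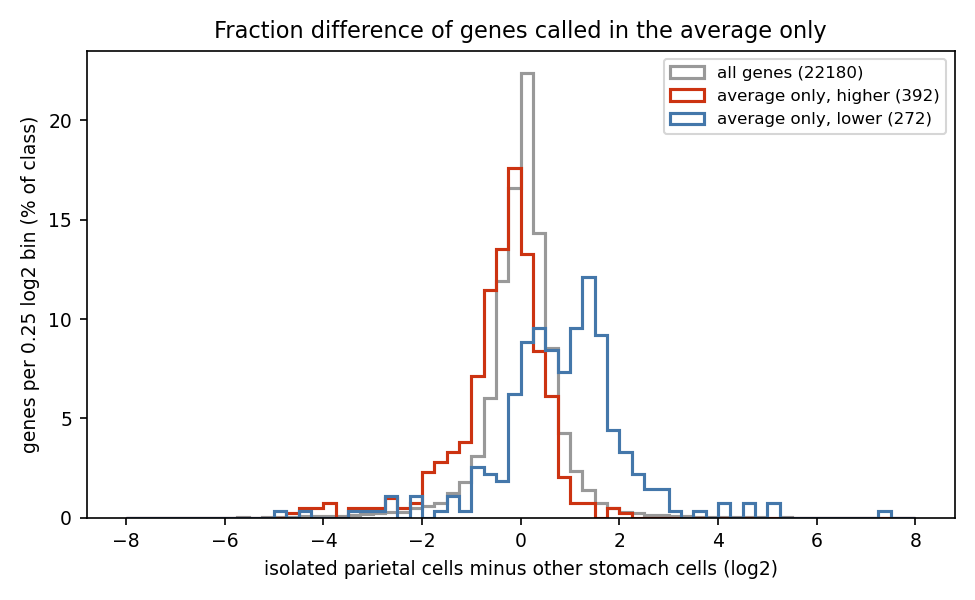
Share of genes (y axis, per bin of 0.25) by their log2 difference between isolated parietal cells and the other stomach cells (x axis, 1 array each), for all genes (grey) and for genes called in the average only. The lower genes (blue, median 0.85) lie to the right of all genes (median 0.03) and the higher genes (red, median -0.27) to the left.

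Chief cell and secretory genes showed few average-only changes. Of 11 chief cell genes 4 were lower and 1 higher, none in the average only. The intrinsic factor gene Cblif (-1.32 ± 0.09, adjusted p = 0.000256) and the chitinase gene Chia1 (-1.71 ± 0.13, adjusted p = 0.000369) were called in both strata. Creb3l1, an endoplasmic reticulum transcription factor gene of secretory cells, read 10.53 and 10.12 with vehicle, 9.65 and 9.39 with tamoxifen, 10.27, 10.39 and 10.22 with rapamycin, and 9.75 and 9.45 with both drugs. Its fall of -0.75 ± 0.13 (adjusted p = 0.00896) was shared by the strata (-0.80 and -0.69) and lost without combined array 2 (adjusted p = 0.0521). Of 32 secretory transport genes 2 were lower, both in the average only: the cargo receptor gene Tmed3 (-0.75 ± 0.18, adjusted p = 0.0418) and the retrieval receptor gene Kdelr3 (-0.57 ± 0.11, adjusted p = 0.0182), kept in 2 and 5 of 9 omissions. Among 24 genes of endoplasmic reticulum folding and stress 2 were lower, with Herpud1 (-0.43 ± 0.09, adjusted p = 0.0237) in the average only and in 3 of 9. The glycolysis gene Pfkl (-0.50 ± 0.09, adjusted p = 0.0118) was the 1 called gene of 14 in its list and was lost without combined array 2 (adjusted p = 0.0708). The shares called were 6.25% for secretory transport, 8.33% for endoplasmic reticulum folding and 7.14% for glycolysis, near the 5.85% of all genes. Tmed3 (adjusted p = 0.152), Kdelr3 (0.0849) and Herpud1 (0.139) were not called under the joint omission.

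Autophagy and mTORC1 genes are of interest here because rapamycin acts on that complex. Mtor, the kinase gene itself, read 8.96 and 9.05 with vehicle, 8.21 and 8.33 with tamoxifen, 8.79, 9.11 and 8.76 with rapamycin, and 8.52 and 8.52 with both drugs. All 4 tamoxifen arrays were below the 5 others, with a fall of -0.55 ± 0.11 (adjusted p = 0.0174) that was -0.73 without rapamycin and -0.36 with it. Tsc2 (-0.49 ± 0.10, adjusted p = 0.0191), a brake on the complex, fell as well, and Ifrd1 (0.60 ± 0.12, adjusted p = 0.0197), listed among the brakes, rose. Mtor was lost without either combined array, and Tsc2 and Ifrd1 were kept in 4 and 5 of 9 omissions. Of 24 list members 1 was higher and 3 lower (median 0.00). With the squamous level as a covariate Mtor had an adjusted p of 0.0554 and Tsc2 of 0.0764. No list member was called under the joint omission, where Mtor had an adjusted p of 0.0706, Tsc2 of 0.106 and Ifrd1 of 0.0507, or without combined array 1.

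Among 25 autophagy genes 4 were lower, 2 of them in the average only, and 0 higher (median -0.15). Map1lc3b, which encodes the LC3 protein of autophagosome membranes, read 10.39 and 10.28 with vehicle, 9.73 and 9.84 with tamoxifen, 10.39, 10.44 and 10.42 with rapamycin, and 9.95 and 10.10 with both drugs. The fall was -0.47 ± 0.09 (adjusted p = 0.016), and the rapamycin arrays lay at the vehicle level. The mitophagy receptor gene Bnip3 changed by -0.62 ± 0.12 (adjusted p = 0.0158). Both were lost without either combined array, with the squamous covariate (adjusted p = 0.0645 for Map1lc3b and 0.0586 for Bnip3) and under the joint omission (0.104 and 0.097). The list had 1 called gene without combined array 1, 2 without combined array 2 and 2 under the joint omission. Its median was -0.06 without tamoxifen 1, -0.28 without tamoxifen 2, -0.24 without vehicle 1 and -0.05 under the joint omission. Of 26 lysosomal genes 3 were higher and 1 lower: the hydrolase genes Gusb (0.39 ± 0.08, adjusted p = 0.0262) and Ctsz (0.36 ± 0.09, adjusted p = 0.0452) and, in the other direction, the cholesterol exporter gene Npc1 (-0.40 ± 0.10, adjusted p = 0.0494) were called in the average only, in at most 1 of 9 omissions each and not under the joint omission (adjusted p between 0.0848 and 0.158). Higher lysosomal calls numbered 0 to 2 over the 9 omissions and 0 under the joint omission.

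Interferon response genes rose. Of 22 measured genes 20 were higher and 0 lower (median 1.24), with 2 called in the first stratum and 17 in the second, and medians of 0.84 and 1.69 there. Isg15, a ubiquitin-like modifier gene, was one of 3 called in the average only. Its promoter window (chr4:156200819-156201068, minus strand) is printed because it holds 3 overlapping matches, in capitals, on the strand opposite to the printed one, to the core of the interferon-stimulated response element (TTTC, 2 free bases and TTTC), starting 78, 72 and 66 bases before the start. That motif occurred in 8 of 16 windows of the list (50.0%) and in 2.96% of all windows, and in 3.22% and 1.91% of windows of average-only higher and lower genes.
Isg15: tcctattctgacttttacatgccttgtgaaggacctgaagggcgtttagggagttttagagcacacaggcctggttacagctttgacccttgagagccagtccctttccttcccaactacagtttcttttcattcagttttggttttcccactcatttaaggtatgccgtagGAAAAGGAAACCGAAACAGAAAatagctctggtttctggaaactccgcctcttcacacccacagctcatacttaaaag
Isg15 read 5.63 and 6.40 with vehicle, 6.53 and 8.61 with tamoxifen, 5.29, 4.46 and 4.78 with rapamycin, and 6.61 and 7.13 with both drugs. Tamoxifen 1 exceeded vehicle 2 only slightly, tamoxifen 2 was far above both, and the rise of 1.79 ± 0.40 (adjusted p = 0.0326) was kept in 4 of 9 omissions. Mx1 (1.03 ± 0.24, adjusted p = 0.0405) and Ifit2 (0.42 ± 0.10, adjusted p = 0.0382), antiviral genes, were kept in 2 and 0, Ifit2 being uncalled under the joint omission as well (adjusted p = 0.101).

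Larger interferon changes were called in the second stratum as well. Under the rule for naming genes, the 6 largest rises without overlap were Ifit1 (2.53 ± 0.39, adjusted p = 0.00633), Oasl2 (2.40 ± 0.19, adjusted p = 0.000437), Oas2 (2.28 ± 0.24, adjusted p = 0.000998), Irf7 (2.25 ± 0.22, adjusted p = 0.000829), Ddx60 (2.18 ± 0.21, adjusted p = 0.000744) and Oas1g (2.18 ± 0.26, adjusted p = 0.00171). Each was called in the second stratum and in 9 of 9 omissions. Antigen presentation genes were smaller: 6 of 17 were higher (median 0.31), 5 in the average only. H2-K1, a class I heavy chain gene, read 9.09 and 9.08 with vehicle, 9.77 and 10.75 with tamoxifen, 9.11, 9.17 and 9.08 with rapamycin, and 9.76 and 9.94 with both drugs. Tamoxifen 2 stood highest, and the arrays without tamoxifen spanned 9.08 to 9.17, for a rise of 0.95 ± 0.18 (adjusted p = 0.0164). The immunoproteasome genes Psmb10 (0.83 ± 0.16, adjusted p = 0.017) and Psmb8 (0.59 ± 0.14, adjusted p = 0.0484) and the peptide transporter gene Tap1 (0.93 ± 0.23, adjusted p = 0.0489) rose too. H2-K1 was lost without either combined array, Psmb10 was kept in 7 of 9 omissions, Psmb8 in 2 and Tap1 in 1. Without combined array 2 the lists had 14 and 1 called genes. The antigen list had 2 or 3 without vehicle 2, tamoxifen 2 (median 0.20) or any rapamycin array, and 2 under the joint omission, where Psmb8 (adjusted p = 0.0679) and Tap1 (0.125) were not called. Members of class I families are near-identical, and the probe sets may not separate them.

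Some genes of epithelial repair and junctions rose. S100a11, a calcium-binding protein gene, read 10.83 and 10.50 with vehicle, 11.62 and 11.32 with tamoxifen, 11.02, 10.97 and 10.70 with rapamycin, and 11.52 and 11.60 with both drugs. The rise of 0.74 ± 0.12 (adjusted p = 0.00858) was in 9 of 9 omissions but not under the joint omission (adjusted p = 0.0503). S100a6 (0.66 ± 0.12, adjusted p = 0.0112), the focal adhesion gene Zyx (0.55 ± 0.12, adjusted p = 0.0264) and the integrin gene Itga2 (1.13 ± 0.25, adjusted p = 0.0305) were kept in 7, 2 and 3 of 9. Of 30 genes in this list 7 were higher and 0 lower, 5 in the average only (median 0.28). The calls numbered 2 without combined array 1, 3 without combined array 2, 4 without rapamycin 2 or 3, and 3 under the joint omission, which left S100a6 (adjusted p = 0.0608) and Zyx (0.0711) uncalled. The list's median was 0.16 without tamoxifen 2 and 0.38 without tamoxifen 1. Of 14 tight junction genes 2 were called, both in the average only: the pore-forming claudin gene Cldn2 (1.25 ± 0.23, adjusted p = 0.0149) and Cldn7 (0.53 ± 0.13, adjusted p = 0.0458). Cldn2 read 2.87 and 3.35 with vehicle, 4.43 and 4.84 with tamoxifen, 3.73, 2.74 and 2.92 with rapamycin, and 4.40 and 3.82 with both drugs, dim on every array, and was kept in 7 of 9 omissions, while Cldn7 was kept in 1 and not under the joint omission (adjusted p = 0.139). Neither was called without vehicle 1 or combined array 1, and the list's median of 0.20 was 0.12 without vehicle 1 or tamoxifen 2. Lama5 (0.69 ± 0.11, adjusted p = 0.00676), a basement membrane laminin gene, and Ano9 (0.80 ± 0.13, adjusted p = 0.0066), of the anoctamin membrane protein family, were kept in 9 of 9 and under the joint omission.

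Redox and immediate early genes included Gclc, the catalytic subunit of glutathione synthesis, which read 9.57 and 9.88 with vehicle, 10.25 and 10.74 with tamoxifen, 9.40, 9.41 and 9.39 with rapamycin, and 10.27 and 10.00 with both drugs. Its rise was 0.76 ± 0.13 (adjusted p = 0.0108) and was lost without combined array 1 (adjusted p = 0.0644). Of 15 NRF2 target genes 5 were higher and 0 lower (median 0.41), Gclc and Gstm1 (0.53 ± 0.13, adjusted p = 0.0438, 1 of 9 omissions) in the average only. The list had 2 called genes without combined array 1, 3 without combined array 2, rapamycin 2 or rapamycin 3, and 4 under the joint omission, where Gstm1 was not called (adjusted p = 0.194). Mgst1 (0.74 ± 0.12), a microsomal glutathione transferase gene named after its values were seen, was kept in 9 of 9 but not under the joint omission (adjusted p = 0.0647). Myc, the growth transcription factor gene, read 8.56 and 8.12 with vehicle, 9.37 and 8.72 with tamoxifen, 8.92, 9.12 and 8.95 with rapamycin, and 9.98 and 9.93 with both drugs. Both combined arrays exceeded both tamoxifen arrays, rapamycin arrays exceeded vehicle, and the rise of 0.83 ± 0.15 (adjusted p = 0.0139) was lost without either combined array. Hbegf (0.61 ± 0.14, adjusted p = 0.0326), a growth factor gene, was kept in 2 of 9, and Plaur (1.32 ± 0.22), the urokinase receptor gene named after its values were seen, in 9 of 9. Of 21 genes in the immediate early list 4 were higher and 1 lower (median 0.26). Its median was 0.13 without tamoxifen 2, 0.47 without tamoxifen 1 and 0.42 under the joint omission, and the higher calls ranged from 2 without combined array 1 to 6. Myc had an adjusted p of 0.058 under the joint omission.

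Chromatin genes had higher calls only. Of 26 histone chaperone and chromatin genes 11 were higher, 0 lower and 4 in the average only (median 0.45). Dnmt1, the maintenance DNA methyltransferase gene, read 8.53 and 8.30 with vehicle, 9.25 and 9.13 with tamoxifen, 8.62, 8.60 and 8.28 with rapamycin, and 9.23 and 8.99 with both drugs. It rose by 0.69 ± 0.12 (adjusted p = 0.0092) and was lost without combined array 1 (adjusted p = 0.0584). The histone chaperone genes Asf1b (0.79 ± 0.14, adjusted p = 0.0105) and Anp32e (0.73 ± 0.14, adjusted p = 0.0191) and the Polycomb gene Eed (0.47 ± 0.11, adjusted p = 0.0431) were kept in 8, 5 and 2 of 9 omissions, and the number of called list genes ranged from 8 to 13. Dnmt1 (adjusted p = 0.0508) and Eed (0.0717) were not called under the joint omission, which left 8.

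Markers of other cell types moved unevenly, and their part in the results above was not tested. All 13 squamous genes were above 0 (median 1.60) with 0 called by limma and 1 at an unadjusted p under 0.05, and the median was 0.61 without tamoxifen 1, 2.86 with 3 called without tamoxifen 2, and -0.11 under the joint omission. Of 15 macrophage genes 3 were higher (median 0.35). Cd68 (0.61 ± 0.13, adjusted p = 0.0326) was among them, in the average only and in 2 of 9 omissions, and not under the joint omission (adjusted p = 0.0847). The macrophage list had 1 called gene without combined array 2, 5 without tamoxifen 1 and a median of 0.23 without tamoxifen 2. None of the 10 neutrophil, 12 T cell, 9 B cell, 12 pit mucous, 7 tuft cell, 12 enteric neuron and glia or 16 circadian genes was called by limma, where the smallest adjusted p's belonged to S100a8 (0.166), Cd3g (0.131), Cd79b (0.123), Krt20 (0.0873), Trpm5 (0.205), Ret (0.189) and Nr1d1 (0.117). At an unadjusted p under 0.05 the counts were 1, 4, 1, 2, 1, 2 and 3 in the same order. Over all 22180 genes, 3904 had such a p in the average. The mean of 15 macrophage genes was 6.89 and 7.39 with tamoxifen and 6.69 and 6.89 with both drugs, beside 6.48 to 6.66 without tamoxifen.

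Among other lists, 2 of 14 endothelial genes were lower (median -0.33), the VEGF receptor gene Kdr (-0.68 ± 0.16, adjusted p = 0.0395) in the average only, in 2 of 9 omissions and not with the squamous covariate (adjusted p = 0.0852). No endothelial gene was called without vehicle 1, tamoxifen 1, rapamycin 1, rapamycin 2 or combined array 1. Of 12 exocrine pancreas genes 4 were lower (median -0.27), with the trypsinogen gene Prss1 (-1.14 ± 0.27, adjusted p = 0.0405) in the average only, in 3 of 9 and not under the joint omission (adjusted p = 0.079). Of 14 endocrine genes 1 was higher and 1 lower (median -0.13). The higher one, the granin gene Chgb (1.43 ± 0.14, adjusted p = 0.000854), named after its values were seen, was called in both strata. The lower one, the hormone gene Sst (-0.95 ± 0.23, adjusted p = 0.0457), was kept in 2 of 9 omissions and not under the joint omission (adjusted p = 0.08), and vehicle 2, at 11.08, stood beside the tamoxifen arrays. Of 15 neck mucous and metaplasia genes 2 were higher and 2 lower (median 0.24). Clu (0.45 ± 0.09, adjusted p = 0.0236) and Dmbt1 (1.53 ± 0.26, adjusted p = 0.0102) rose in the average only, in 2 and 8 of 9 omissions, Clu not under the joint omission (adjusted p = 0.12). The gland mucin gene Muc6 (-1.17 ± 0.23, adjusted p = 0.0203) and Spink4 (-0.95 ± 0.19, adjusted p = 0.0229), named after their values were seen, fell and were called in the first stratum as well, but not in the second. Muc6 read 12.18 and 12.82 with vehicle, 10.22 and 10.94 with tamoxifen, 11.95, 11.59 and 11.81 with rapamycin, and 11.81 and 10.93 with both drugs. Its combined array 1 lay among the rapamycin arrays. No lower call was left under the joint omission or without tamoxifen 1, rapamycin 3 or combined array 2, and no higher call without combined array 1. Dmbt1, a mucosal defence glycoprotein gene, read 8.17 and 9.27 with vehicle, 9.89 and 10.75 with tamoxifen, 8.33, 7.77 and 7.85 with rapamycin, and 9.61 and 9.28 with both drugs, and lost its call without combined array 1 (adjusted p = 0.0588). The oestrogen response list had 1 higher and 2 lower genes of 15 (median -0.04), with Ccnd1 and Cited2 (-1.07 ± 0.24, adjusted p = 0.0325), a transcription co-regulator gene, in the average only, Cited2 not under the joint omission (adjusted p = 0.0588).

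The remaining lists held few calls. Their shares ran from 5% (fibroblast and matrix) to 16.7% (intestine), beside 5.85% of all genes, with 0% for blood. Of 18 sterol synthesis genes 1 was higher (median 0.27), the mevalonate enzyme gene Pmvk (0.96 ± 0.10, adjusted p = 0.00114), and of 17 fatty acid synthesis genes 1 was lower, Gpam (-1.21 ± 0.10, adjusted p = 0.000492), which starts glycerolipid assembly. Of 21 ATF4 and amino acid supply genes 2 were higher and 1 lower, the amino acid transporter subunit gene Slc3a2 (-0.39 ± 0.09, adjusted p = 0.047) in the average only, in 0 of 9 omissions and not under the joint omission (adjusted p = 0.174). The xenobiotic list had 2 higher genes of 17, with Aldh3a1 (0.47 ± 0.11, adjusted p = 0.0393) kept in 1 of 9 and not under the joint omission (adjusted p = 0.157), and the p53 list 2 of 16, Gtse1 being one. Of 20 fibroblast and matrix genes 1 was higher, the protease inhibitor gene Timp1 (0.64 ± 0.10, adjusted p = 0.00583). Of 12 intestinal genes 1 was higher in the average only, the lectin gene Lgals4 (0.67 ± 0.13, adjusted p = 0.0212, 4 of 9 omissions), and 1 was lower. The lipase gene Lpl (-2.54 ± 0.15, adjusted p = 0.000142) was the 1 called gene of 10 in the adipose list. It was higher by 5.28 in the parietal fraction than in the other cells. The single measured blood gene, Slc4a1, was at -0.03 ± 0.12 (adjusted p = 0.943).

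In several lists the strata had medians of opposite sign. Mast cell genes had a median of -0.74 without rapamycin and 0.26 with it (average -0.44, 2 of 11 lower). The averaged median was -0.24 without tamoxifen 1 and -0.19 under the joint omission. Their mean level was 6.76 and 7.15 with vehicle, 5.55 and 6.10 with tamoxifen, 5.50, 5.49 and 5.61 with rapamycin, and 5.66 and 5.64 with both drugs, the rapamycin arrays lying below vehicle. Gata2 (-0.53 ± 0.13, adjusted p = 0.0471), a transcription factor gene of mast cells, was lower in both strata, kept in 1 of 9 and not under the joint omission (adjusted p = 0.152). Smooth muscle genes had medians of 0.11 and -0.44, and fatty acid synthesis genes of 0.34 and -0.34. Adipose genes had medians of 0.12 and -0.52, and fibroblast and matrix genes of 0.42 and -0.02. The medians were 0.10 and -0.13 for ATF4 and amino acid supply genes and 0.04 and -0.09 for mTORC1 genes. They were 0.003 and -0.04 for intestinal genes and 0.0007 and -0.14 for oestrogen response genes. For none of these lists was the difference between strata tested.

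In some called genes the strata had unlike changes. Under the rule for naming genes, the 4 called genes of smallest interaction p were St3gal4, Atp6v0d2, Actg2 and Mcpt-ps1. Atp6v0d2, a vacuolar proton pump subunit gene, read 8.0 and 8.92 with vehicle, 8.71 and 8.08 with tamoxifen, 4.21, 3.70 and 3.59 with rapamycin, and 7.46 and 7.42 with both drugs. The 3 rapamycin arrays were far below all the others, and the change was -0.07 without rapamycin, 3.61 with it and 1.77 ± 0.22 (adjusted p = 0.0024) in the average. St3gal4, a sialyltransferase gene, read 8.46 and 8.86 with vehicle, 6.86 and 6.70 with tamoxifen, 6.05, 5.97 and 5.76 with rapamycin, and 6.44 and 6.04 with both drugs, where the vehicle arrays stood above all the others (-1.88 and 0.31 in the strata). Actg2, a smooth muscle actin gene, changed by 0.08 and -0.93, and the mast cell protease pseudogene Mcpt-ps1 by -1.18 and 0.08. Averaged, St3gal4 changed by -0.78 ± 0.13 (adjusted p = 0.00977), Actg2 by -0.42 ± 0.10 (adjusted p = 0.0395) and Mcpt-ps1 by -0.55 ± 0.13 (adjusted p = 0.0379), and limma called none of the 4 for a difference between strata. St3gal4 lost its averaged call without combined array 2 (adjusted p = 0.0518), and Actg2 and Mcpt-ps1 kept theirs in 1 of 9 omissions and not under the joint omission (adjusted p = 0.139 and 0.169).

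Under the rule for naming genes, which passes over some kinds of symbol, the 6 largest falls without overlap were called in each stratum. The largest fall of the contrast, -4.19, belonged to a symbol that the rule passes over, and it too was called in both strata. B4galnt2, a glycosyltransferase gene, read 10.07 and 9.99 with vehicle, 6.04 and 6.90 with tamoxifen, 9.84, 9.86 and 9.83 with rapamycin, and 5.59 and 5.95 with both drugs, a fall of -3.81 ± 0.17 (adjusted p = 4.88e-05). Rnase1 (-3.56 ± 0.17, adjusted p = 4.98e-05), Gpr155 (-3.37 ± 0.22, adjusted p = 0.000217), the hepcidin gene Hamp2 (-3.30 ± 0.40, adjusted p = 0.00191), the trypsinogen gene Try4 (-3.08 ± 0.30, adjusted p = 0.0008) and the growth factor gene Egf (-2.90 ± 0.14, adjusted p = 4.98e-05) followed, all in 9 of 9 omissions. The median size over the 664 average-only genes was 0.55.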

How the data were processed

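RNA of whole stomach and of 2 cell fractions was hybridised to Affymetrix mouse arrays. The deposited values are log2 expression, summarised by the authors with RMA in Partek per the submitters' processing notes, with versions not given in the sources used here. That summary includes background correction and normalisation across arrays, so depth has no meaning here and the number of arrays limits the precision. Whether the 2 fraction arrays were normalised together with the 9 whole-stomach arrays is not stated. Of 41345 probe sets, 23521 named 1 gene symbol, 1814 several and 16010 none. Each of 22180 genes was represented by its brightest probe set (mean of the 9 arrays), and no filter on low values was applied.

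Group means were fitted with limma 3.58.1 (R 4.3.3, lmFit and eBayes) to the 9 whole-stomach arrays. The averaged change, the change in each stratum and their difference were contrasts of that fit. The threshold for a call was 0.05 after Benjamini-Hochberg adjustment. The procedure was tested on simulated data. Beside calls, each list is described by its counts and median.

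The contrast, the 55 gene lists (1052 of 1141 entries measured) and the tests were chosen with earlier results of these data known. The genes named are, among symbols that are not predicted genes, clone names, small RNAs or olfactory receptors, the 12 of smallest p in each direction among average-only changes under 1 log2 unit without overlap; from each list up to 4 members called in the average only, or up to 2 called, or the 1 of smallest p; the 6 largest rises and falls without overlap; the 3 on either side of the threshold; and the 4 called genes of smallest interaction p. Genes outside that rule are said to be so, apart from holders of a printed motif and marker levels. Alternatives were other normalisations, filters, probe set rules, models, a squamous covariate, the replicate number as a block, a stricter threshold and omission of each array.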

Additional observations from a re-analysis of the deposited data

Results flagged for a closer look

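List means were compared over the 4 arrays with tamoxifen and over the 5 without it, groups that each span both strata. In 10 of 108 such tests 1 array stood apart by its gap to the nearest other array, given below as a share of the whole range; chance gives about 1 in 20.

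With tamoxifen, tamoxifen 2 was the highest array for TCA cycle and fatty acid oxidation genes (9.77 beside 9.39 to 9.43, a gap of 0.89), for endoplasmic reticulum folding genes (9.51 beside 9.07 to 9.12, 0.882) and for intestinal genes (6.23 beside 5.89 to 5.93, 0.872). It was the lowest for squamous genes (4.41 beside 8.48 to 9.22, 0.847). Tamoxifen 1 was the lowest for exocrine pancreas genes (5.40 beside 5.54 to 5.55, 0.921).

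Without tamoxifen, vehicle 2 was the array apart each time. It was the highest for translation factors (9.44 beside 9.26 to 9.31, a gap of 0.73), nuclear transport (7.83 beside 7.65 to 7.69, 0.779), proteasome (8.70 beside 8.40 to 8.46, 0.791) and secretory transport genes (9.45 beside 9.15 to 9.20, 0.818). Endocrine genes were lowest there (7.26 beside 7.65 to 7.77, 0.767).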

How the results depend on the processing

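The averaged change called 586 genes at an adjusted p under 0.01, 786 without tamoxifen 1 and rapamycin 3 and 613 to 1452 with 1 array left out. Elsewhere it called 918 (replicate block) to 1808 (mean level of 6 or more). Genes called in the average only numbered 71 with array weights, 405 at 0.01 and 399 to 847 with 1 array left out. Tamoxifen against vehicle called 678 genes of mean level 6 or more, 20 with array weights, 199 with the squamous covariate, 170 with the replicate block, 50 at 0.01, 95 to 213 with 1 array left out, and 0 in a limma fit of its own arrays, where 1318 had an unadjusted p under 0.05. The combination against rapamycin called 858, 1834, 471 (covariate), 260 (block) and 168 in the same settings, 39 to 643 with 1 array left out and 1102 in its own arrays. The interaction called 1 gene with the replicate block, Scd1 (-4.01, adjusted p = 0.0249; -3.66 without the block). Same-numbered arrays deviated together for vehicle and tamoxifen (r = 0.561) and for tamoxifen 1 and rapamycin 1 (r = 0.408), but not in every pair (down to -0.112). Tamoxifen 2 and rapamycin 3, which differ in number, did so as well (r = 0.427). In groups of 2 arrays the deviations mirror each other, so vehicle and tamoxifen give the same r for either number. The labels name no shared source for a number. Slc4a1, never called, changed sign: 0.0921 with the squamous covariate, 0.0388 with the block, 0.0776 without tamoxifen 1 and rapamycin 3, and -0.0898 to 0.0388 with 1 array left out. Rises were 55.4% of averaged calls, 62.3% without tamoxifen 1 and 49.1% without tamoxifen 2. Causes were not tested.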
